A study of Mus musculus with 45 samples.

Results

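The 10 genes described here encode secreted factors that act on blood vessels and the proteins of vessel walls that receive or answer them. They are the vascular endothelial growth factors Vegfa and Vegfb with the receptors Flt1 and Kdr, the angiopoietins Angpt1 and Angpt2 with the receptor Tek, apelin (Apln) with its receptor Aplnr, and von Willebrand factor (Vwf). The genes were given as a list of symbols, and each symbol was matched to the row of the deposited count table that carries it. All were found, as 10 of the 27007 genes in the table, and all 10 passed the filter on low counts that left 15444 genes for testing.

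Left ventricles of wild-type mice, operated on within a day of birth, gave the total RNA that was sequenced, and pups of every group were nursed by their mothers. The operation was either sham, aortic constriction (nAAC), which loads the left ventricle, or constriction that can be released (Rev-nAAC). With 3 ages at collection (4, 6 and 8 weeks) this makes 9 groups of 5 libraries, 45 in all. The labels used here give neither the mouse strain nor the age at release. Reversal or its effect at an age therefore means below only the difference of Rev-nAAC from nAAC. Whether release had taken place by that age is not known. The labels also do not say whether the libraries of a group came from separate animals. The p-values therefore measure the spread between these libraries, which may be technical in part.

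As background, Vegfa and Vegfb bind tyrosine kinase receptors on endothelial cells, where Kdr carries most of the growth signal and Flt1, a tight binder that is also made as a soluble form, limits the ligand that reaches Kdr. Angpt1, made by cells around the vessel, activates Tek and keeps vessels quiet and tight, while Angpt2, made and stored by endothelial cells, can oppose it. Apelin is released by sprouting endothelial cells and acts on Aplnr, a G protein-coupled receptor of endothelial cells, and in the heart the pair is also known for effects on contraction and blood pressure.

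Library totals ran from 31586082 to 35965976 counts. Sex, read from Xist and Y-linked genes, differed between the operations: the 5 libraries of each sham group were male, while 3, 4 and 2 of the 5 nAAC libraries and 2, 2 and 4 of the 5 Rev-nAAC libraries were female at 4, 6 and 8 weeks. Library 1 of nAAC at 4 weeks carries a sham treatment tag against its nAAC title and was used as titled, and library 5 of that group correlated least with the rest of its group (median 0.967). Library 2 of Rev-nAAC at 4 weeks had the highest summed level of 5 red cell genes (10251 on the counts-per-million scale, CPM), and library 4 of Rev-nAAC at 8 weeks that of 6 adipocyte genes (157 CPM). The summed level of 8 cardiomyocyte genes was at least 20402 CPM in every library. These genes mark heart muscle and cannot tell the left ventricle from other chambers, so that part of the tissue label was not checked.

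CPM are scaled to library sizes normalized by the trimmed mean of M-values (TMM). Between genes they can be compared only per length, and per kilobase of exon the group means of Vegfb were the highest, from 79.7 ± 5.09 (SD, n = 5) in nAAC at 8 weeks to 118 ± 15.7 in Rev-nAAC at 6 weeks. Those of Angpt2 were among the lowest, from 0.900 to 1.71 CPM per kilobase. The group means of Aplnr ran from 6.67 ± 3.53 CPM per kilobase in Rev-nAAC at 8 weeks to 39.0 ± 6.90 in sham at 4 weeks. In bulk tissue, fewer cells of a type and less RNA per cell cannot be told apart.

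Angpt1 was lower in nAAC than in sham at every age, as was Apln, whose call at 6 weeks was lost with sex as a covariate (-0.47, edgeR adjusted p = 0.190) and with male libraries alone (-0.37, edgeR adjusted p = 0.354). At 4 weeks Aplnr, Kdr and Tek were lower as well, Tek with a call that was lost without nAAC library 5 (-0.29, edgeR adjusted p = 0.0513). A gene was called where edgeR's quasi-likelihood test gave an adjusted p under 0.05 (Benjamini-Hochberg over all genes tested). Of the 10 members, 7 were called in nAAC against sham at 4 weeks, where 40.7% of all tested genes were called: 1 was higher, beside 19.5% of genes, and 6 were lower, beside 21.2%. At 6 weeks 3 members were called, against 48.3% of tested genes, and all were lower, beside 23.8%. At 8 weeks 3 were called, against 47.2%, and all were lower, beside 23.5%. The median log2 fold change of the members was -0.37 at 4 weeks, -0.03 at 6 weeks and 0.11 at 8 weeks, beside -0.03, 0.02 and 0.02 over all genes tested. Rev-nAAC was compared with the same nAAC and sham libraries, so these comparisons share samples. Against nAAC, no member of Rev-nAAC was called at 4 weeks, although 3 had an unadjusted p under 0.05, and 2.55% of tested genes were called. That comparison called 3 members at 6 weeks against 25.9% of genes, all of them higher, beside 13.8%, and 2 at 8 weeks against 32.9%, both lower, beside 16.0%. Against sham, Rev-nAAC had 5 members called at 4 weeks where 25.3% of genes were, 2 higher beside 12.2% and 3 lower beside 13.1%. It had 2 at 6 weeks against 17.1%, 1 higher beside 8.66% and 1 lower beside 8.39%, and 2 at 8 weeks against 35.6%, both lower, beside 17.3%. Counted in either direction, the members' shares against sham at 4 weeks lay above those of all genes. In the other comparisons of operations these shares lay near or below them. By direction this differed in places. In nAAC against sham at 4 weeks 1 of 10 members was higher, below the 19.5% of all genes. In Rev-nAAC against nAAC at 6 weeks 3 of 10 were higher, above the 13.8% of all genes. At 4 weeks the calls of Vegfa and Tek in nAAC and of Aplnr and Vwf in Rev-nAAC were lost without single libraries. The members were chosen with earlier results of these data known, so the shares are a description only.

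**Figure D1:**
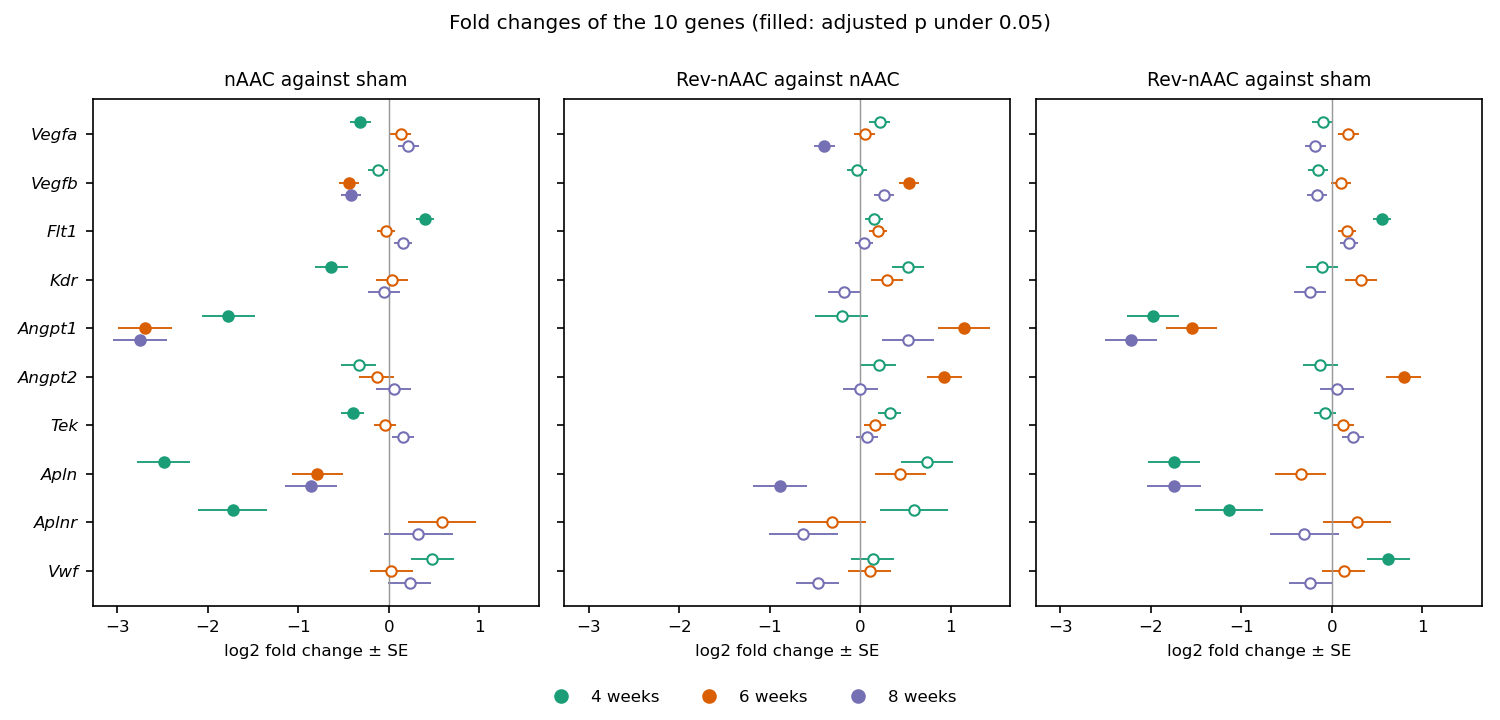
Log2 fold change with its standard error of each of the 10 genes in nAAC against sham, Rev-nAAC against nAAC and Rev-nAAC against sham, with 1 colour per age and 5 libraries per group; filled points have an adjusted p under 0.05. Angpt1 lies at -1.77, -2.69 and -2.75 in nAAC against sham, and Apln at -2.49, -0.79 and -0.86.

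Apln encodes the peptide ligand of Aplnr, in chrX:48025146-48034853 of GRCm38 on the minus strand, and it had the widest spread of group means among the members. At 4 weeks the sham libraries held 30.6, 37.9, 38.1, 42.7 and 35.9 CPM. The nAAC libraries of that age held 5.36, 8.94, 6.60, 6.84 and 5.22 CPM. Every nAAC library lay far below every sham library, and Apln fell by 2.49 on the log2 scale (SE 0.30, adjusted p = 2.23e-08 by edgeR's quasi-likelihood test). The Rev-nAAC libraries held 8.59, 3.77, 14.7, 11.8 and 16.3 CPM, all below sham and only in part above nAAC. Apln in Rev-nAAC was lower than in sham by a log2 fold change of -1.75 (SE 0.29, edgeR adjusted p = 1.70e-05). Its difference from nAAC, 0.74 (SE 0.29), missed the threshold with an edgeR adjusted p = 0.156, and without Rev-nAAC library 2 (the library rich in red cell RNA) it was 0.96 with an edgeR adjusted p = 0.0458.

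The promoter of Apln is shown because the group means of Apln differed by the widest ratio among the members. Its RefSeq window in GRCm38.p6 spans 250 bases before to 50 bases after the start site, at chrX:48034804-48035103 on the minus strand, and its last 50 bases lie in the gene. It is written 5′ to 3′, with capitals reserved for matches to 5 short motifs.

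Apln promoter: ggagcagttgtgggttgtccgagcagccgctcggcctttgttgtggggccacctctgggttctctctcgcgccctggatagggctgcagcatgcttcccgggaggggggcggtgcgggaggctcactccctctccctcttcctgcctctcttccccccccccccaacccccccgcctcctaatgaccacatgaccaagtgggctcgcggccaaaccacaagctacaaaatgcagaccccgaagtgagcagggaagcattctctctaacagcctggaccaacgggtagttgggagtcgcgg

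None of the 5 motifs was found in these letters, which says only that they are absent from this window. The motifs were searched on both strands in all 32851 promoter windows. ACGTG (hypoxia response core) was held by 19.6% of windows, GGAATG (TEAD site) by 14.7%, TGACGTCA (cyclic AMP response element) by 1.79%, TATAAA (core promoter box) by 13.6% and CGGAAG (ETS site) by 16.9%. No motif contains another.

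At 6 weeks Apln in sham was at 22.8, 18.3, 17.3, 16.1 and 20.5 CPM and in nAAC at 8.52, 14.7, 12.6, 9.89 and 9.40 CPM. The groups did not overlap, but the gap was narrow, and Apln fell by 0.79 on the log2 scale (SE 0.28, edgeR adjusted p = 0.0197). The highest nAAC library was the only male of its group. With sex as a covariate the difference was -0.47 (edgeR adjusted p = 0.190), with male libraries alone -0.37 (edgeR adjusted p = 0.354) and without nAAC library 1 -0.71 (edgeR adjusted p = 0.0521), so the call at 6 weeks did not hold; the part of sex was not tested further. The Rev-nAAC libraries, at 9.36, 18.4, 14.5, 18.7 and 13.97 CPM, overlapped both other groups. Neither difference passed the test (-0.34, SE 0.28 against sham and 0.44, SE 0.28 against nAAC).

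At 8 weeks Apln was at 13.7, 16.4, 10.3, 10.5 and 11.2 CPM in sham and at 5.08, 8.78, 8.26, 4.90 and 7.19 CPM in nAAC. The groups again did not overlap, with a log2 fold change of -0.86 (SE 0.29, edgeR adjusted p = 0.0132). The Rev-nAAC libraries held 4.29, 3.45, 1.81, 1.57 and 7.40 CPM, the lowest group of the series. Against sham Apln fell by 1.75 on the log2 scale (SE 0.30, edgeR adjusted p = 1.76e-05), and with male libraries alone the difference was -0.74 (edgeR adjusted p = 0.106). Against nAAC it fell by 0.89 (SE 0.30, edgeR adjusted p = 0.0206), with overlapping groups. That call was lost without nAAC library 2 (-0.78, edgeR adjusted p = 0.0582), without Rev-nAAC library 3 (-0.71, edgeR adjusted p = 0.0758) and without Rev-nAAC library 4 (-0.69, edgeR adjusted p = 0.0814). With male libraries alone the difference was 0.07, since the single male Rev-nAAC library was the one at 7.40 CPM and the 4 female libraries held 1.57 to 4.29 CPM.

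Aplnr encodes the apelin receptor (chr2:85136360-85139923, plus strand), and in sham it was lower at each later age. Sham libraries held 139, 166, 112, 174 and 130.4 CPM at 4 weeks. They held 73.3, 66.7, 80.5, 66.9 and 57.2 CPM at 6 weeks and 29.6, 25.3, 47.8, 19.9 and 29.5 CPM at 8 weeks. The sham ages did not overlap, and from 4 to 8 weeks Aplnr fell by 2.24 on the log2 scale (SE 0.39, edgeR adjusted p = 6.22e-05). The step from 4 to 6 weeks was -1.06 (SE 0.38, edgeR adjusted p = 0.0466), a call lost without any of the 10 libraries compared except sham 4-week library 3 (edgeR adjusted p from 0.0583 to 0.0986). The step from 6 to 8 weeks was -1.18 (SE 0.38, edgeR adjusted p = 0.0949). In the same ages Apln fell by 0.96 (SE 0.28, edgeR adjusted p = 0.0142) from 4 to 6 weeks and by 1.58 (SE 0.28, edgeR adjusted p = 8.46e-05) from 4 to 8 weeks. The first of these was -0.74 (edgeR adjusted p = 0.131) with nAAC 4-week library 1 counted as sham.

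In nAAC at 4 weeks the Aplnr levels were 75.6, 36.8, 27.0, 38.9 and 39.5 CPM. All were below the lowest sham library, and the highest was library 1, whose treatment tag says sham. Aplnr fell by 1.73 against sham (SE 0.38, edgeR adjusted p = 0.000468), a call that held in all alternatives run. The nAAC libraries at 6 weeks held 50.8, 118, 169, 134 and 46.2 CPM, 3 of them above every sham library and 2 below every sham library of that age. The log2 fold change there was 0.59 (SE 0.38) with an edgeR adjusted p = 0.201, and at 8 weeks it was 0.33 (SE 0.38) with an edgeR adjusted p = 0.503. The 95% intervals of these differences ran from -0.15 to 1.32 and from -0.41 to 1.07.

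Aplnr in Rev-nAAC was at 56.8, 34.4, 131, 49.5 and 56.6 CPM at 4 weeks, where library 3 reached the sham range. The difference from sham was -1.13 (SE 0.38, edgeR adjusted p = 0.0240). It missed the threshold without sham library 4 (-1.06, edgeR adjusted p = 0.0522) and without Rev-nAAC library 1 (-1.08, 0.0502), library 2 (-0.97, 0.0799) or library 4 (-1.05, 0.0562). At 6 weeks the Rev-nAAC libraries held 37.1 to 119 CPM and at 8 weeks 5.36 to 40.0 CPM, with no call against sham or nAAC.

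The effect of constriction on the apelin pair differed between ages in the test of the difference itself. For Apln the fold change at 6 weeks was higher than at 4 weeks by 1.70 (SE 0.40, edgeR adjusted p = 0.00261) and at 8 weeks by 1.63 (SE 0.41, edgeR adjusted p = 0.00636). Aplnr differed by 2.31 (SE 0.54, edgeR adjusted p = 0.00228) and 2.05 (SE 0.54, edgeR adjusted p = 0.00957). Between 6 and 4 weeks the effect differed for 3 members where 17.3% of tested genes were called, 2 higher beside 8.96% and 1 lower beside 8.32%. Between 8 and 4 weeks it differed for 4 members where 13.6% were called, all higher beside 6.86%. With nAAC 4-week library 1 counted as sham, the Apln differences were 1.41 (edgeR adjusted p = 0.0523) and 1.34 (edgeR adjusted p = 0.0730). Between 6 and 8 weeks no member's effect of constriction was called, where 0.162% of genes were and 0 members had an unadjusted p under 0.05 in edgeR, and no effect of reversal, where 0.0907% were and 3 members had one. The effect of reversal on Apln was lower at 8 than at 4 weeks by a log2 difference of -1.63 (SE 0.42, edgeR adjusted p = 0.0155), 1 of 2 members called where 7.91% of genes were, both lower, beside 3.86%. That call was lost in a fit of only the groups compared (edgeR adjusted p = 0.128), with male libraries alone (-0.52, edgeR adjusted p = 0.736), with the tagged library as sham (-1.56, edgeR adjusted p = 0.0725) and without the 4 libraries named above (-1.48, edgeR adjusted p = 0.0510).

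**Figure D2:**
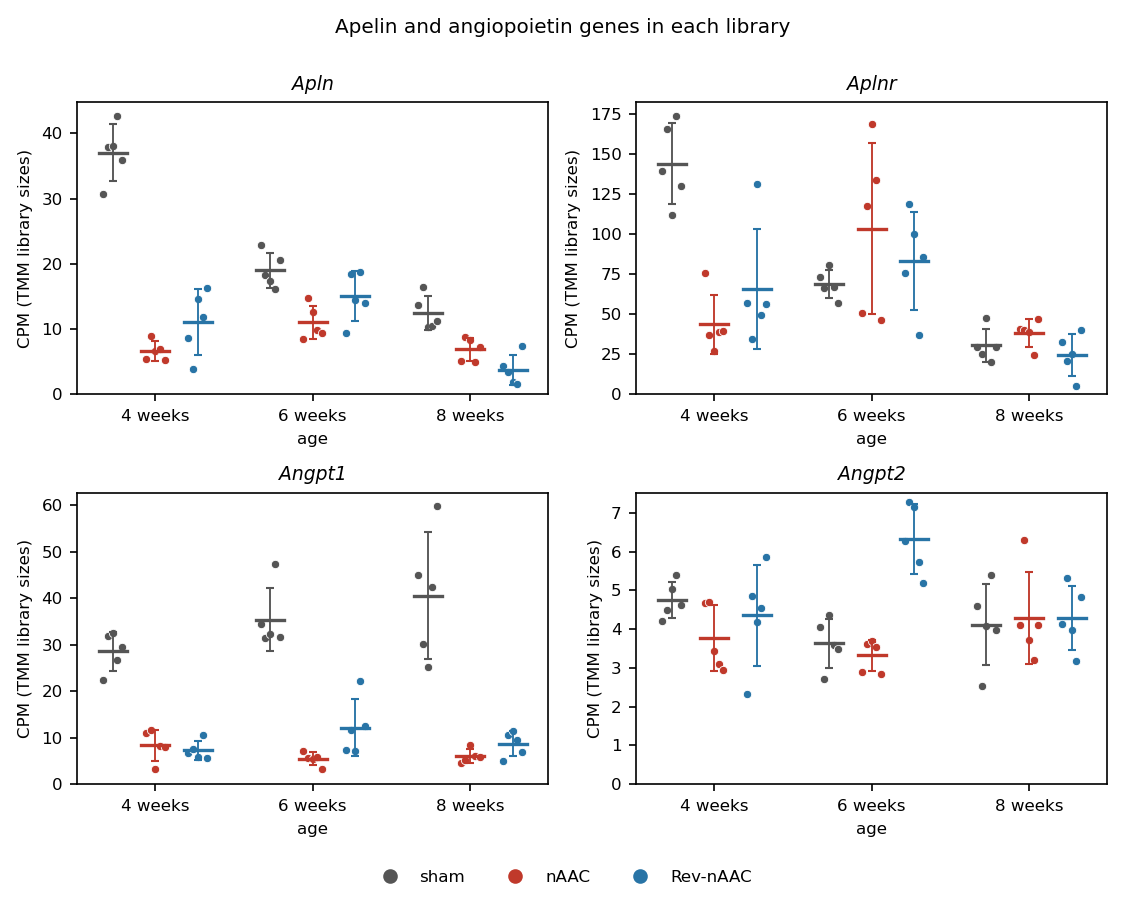
CPM of Apln, Aplnr, Angpt1 and Angpt2 in each of the 45 libraries by age (x axis) and operation (colour), with the mean and SD of each group of 5. Sham levels of Apln run from 30.6 to 42.7 CPM at 4 weeks and from 10.3 to 16.4 CPM at 8 weeks, while Angpt1 lies at 22.3 CPM or higher in all sham libraries and at 11.6 CPM or lower in all nAAC libraries.

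Over the 45 libraries the genes most like Apln by Pearson correlation of log2 CPM were Pxdn (0.880), Tafa3 (0.864) and Col6a3 (0.859), and those most like Aplnr were Nrep (0.902), Plxnd1 (0.892) and Vash1 (0.884). These values describe shared patterns across the same libraries and groups.

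Angpt1, the agonist ligand of Tek (chr15:42424667-42676977, minus strand), was low in every operated group. In sham its libraries held 22.3, 31.8, 32.5, 26.8 and 29.4 CPM at 4 weeks, 34.4, 31.5, 32.2, 47.3 and 31.5 CPM at 6 weeks and 45.04, 30.2, 25.1, 42.4 and 59.9 CPM at 8 weeks. In nAAC they held 10.95, 11.6, 3.14, 8.11 and 7.96 CPM, then 7.15, 5.70, 5.44, 5.77 and 3.24 CPM, then 4.52, 5.12, 8.47, 6.07 and 5.90 CPM. No nAAC library reached the lowest sham library of any age. Angpt1 fell by 1.77 at 4 weeks (SE 0.29, edgeR adjusted p = 6.02e-06). It fell by 2.69 at 6 weeks (SE 0.30, edgeR adjusted p = 2.59e-09) and fell by 2.75 at 8 weeks (SE 0.30, edgeR adjusted p = 1.49e-09), all on the log2 scale. All 3 calls held in every alternative run, male libraries alone included. The differences between these effects, -0.92 at 6 against 4 weeks and -0.98 at 8 against 4 weeks (SE 0.40 each), missed the threshold with edgeR adjusted p = 0.107 and 0.0953.

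Rev-nAAC libraries held 6.60, 7.60, 5.84, 10.6 and 5.65 CPM of Angpt1 at 4 weeks, 7.23, 11.7, 7.05, 22.1 and 12.5 CPM at 6 weeks and 4.997, 10.6, 11.5, 9.57 and 6.87 CPM at 8 weeks. They stayed below the sham libraries of their age throughout, also the highest of them, library 4 at 6 weeks. Against sham the log2 fold change of Angpt1 was -1.98 (SE 0.29, edgeR adjusted p = 3.61e-06), -1.55 (SE 0.28, edgeR adjusted p = 0.000273) and -2.22 (SE 0.29, edgeR adjusted p = 2.12e-07) at the 3 ages in turn, and these calls held in every alternative run. Against nAAC it was higher at 6 weeks by 1.15 (SE 0.29, edgeR adjusted p = 0.00308), with overlapping groups. With male libraries alone, which leave 1 nAAC library at that age, the difference was 0.87 (edgeR adjusted p = 0.376). At 4 and 8 weeks the differences from nAAC were -0.21 (SE 0.29) and 0.53 (SE 0.29), with edgeR adjusted p = 0.761 and 0.161.

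Angpt2, the ligand that can oppose Angpt1 (chr8:18690263-18741562, minus strand), was counted in a locus shared with the coding gene Mcph1. Mcph1 had up to 246 counts in a library, and without a stated strand setting reads of the overlap cannot be told apart, so the low Angpt2 counts of 81 to 252 are uncertain. At 6 weeks Angpt2 was at 6.27, 7.28, 7.16, 5.72 and 5.18 CPM in Rev-nAAC. It was at 2.91, 3.62, 3.70, 3.53 and 2.85 CPM in nAAC and at 4.07, 2.70, 4.35, 3.59 and 3.49 CPM in sham. The Rev-nAAC libraries of that age did not overlap with either group. Angpt2 rose by 0.93 against nAAC (SE 0.19, edgeR adjusted p = 0.000364) and by 0.80 against sham (SE 0.19, edgeR adjusted p = 0.00403). The first of these was 0.86 with an edgeR adjusted p = 0.156 with male libraries alone. In all other groups Angpt2 lay between 2.32 and 6.30 CPM with no call between operations, and the 95% intervals of nAAC against sham ran from -0.71 to 0.05 at 4 weeks, from -0.52 to 0.25 at 6 weeks and from -0.32 to 0.44 at 8 weeks.

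The ratio of Angpt2 to Angpt1 CPM in a library, which is not corrected for gene length and is read only across groups, separated sham from operated libraries. It did not separate nAAC from Rev-nAAC. It ran from 0.0665 to 0.202 in the sham libraries, from 0.370 to 1.23 in nAAC and from 0.259 to 1.04 in Rev-nAAC. No operated library fell into the sham range. The median over nAAC was 0.403 at 4 weeks, 0.634 at 6 weeks and 0.696 at 8 weeks, beside 0.157, 0.111 and 0.102 in sham. Angpt2 itself was not called in nAAC against sham at any age.

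Tek, the angiopoietin receptor (chr4:94739086-94874976, plus strand), was lower in nAAC than in sham at 4 weeks. Sham libraries held 100.3, 111, 101, 106 and 102 CPM and nAAC libraries 83.7, 83.5, 88.5, 85.6 and 53.4 CPM. The groups did not overlap, and library 5 of nAAC stood apart below the rest. Tek fell by 0.40 on the log2 scale (SE 0.12, edgeR adjusted p = 0.00931), and without that library by 0.29 with an edgeR adjusted p = 0.0513. With male libraries alone the difference was -0.26 (edgeR adjusted p = 0.107). At 6 and 8 weeks Tek was not called, at -0.04 (SE 0.12) and 0.16 (SE 0.12), and the effect at 8 weeks differed from that at 4 weeks by 0.55 (SE 0.18, edgeR adjusted p = 0.0301). That difference missed the threshold without sham 4-week library 2, sham 8-week library 1 or 2, nAAC 4-week library 5 (0.44) or nAAC 8-week library 5 (edgeR adjusted p from 0.0517 to 0.0675). In sham Tek was lower at 8 than at 4 weeks (log2 fold change -0.38, SE 0.12, edgeR adjusted p = 0.0245), a call lost without sham 4-week library 2 or sham 8-week library 1, 2 or 4 (edgeR adjusted p from 0.0564 to 0.0694).

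Other genes of the angiopoietin system were taken from a list of 7, of which 6 passed the filter. In nAAC against sham 2 of the 6 were higher and 2 lower at 4 weeks, 2 higher and 1 lower at 6 weeks, and 2 higher and 1 lower at 8 weeks. Over all tested genes the shares at these ages were 19.5%, 24.5% and 23.8% higher and 21.2%, 23.8% and 23.5% lower. Tie1, the partner receptor of Tek, fell by 0.35 at 4 weeks (SE 0.09, edgeR adjusted p = 0.0017) and was at 0.18 and 0.05 later, neither called. Ptprb, the phosphatase that switches Tek off, was at 0.16 and 0.14 without a call and rose by 0.42 at 8 weeks (SE 0.14, edgeR adjusted p = 0.0103). Angptl1, an angiopoietin-like secreted protein, had log2 fold changes of -2.57, -2.36 and -2.20 at the 3 ages, all called (edgeR adjusted p = 4.69e-07, 1.76e-06 and 5.27e-06). Angpt1 itself was most like Gja3 (0.944), Gca (0.936) and Entpd5 (0.935) over the 45 libraries, and Tek most like Rgl1 (0.791), Nxpe4 (0.785) and Sema6a (0.763).

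**Figure D3:**
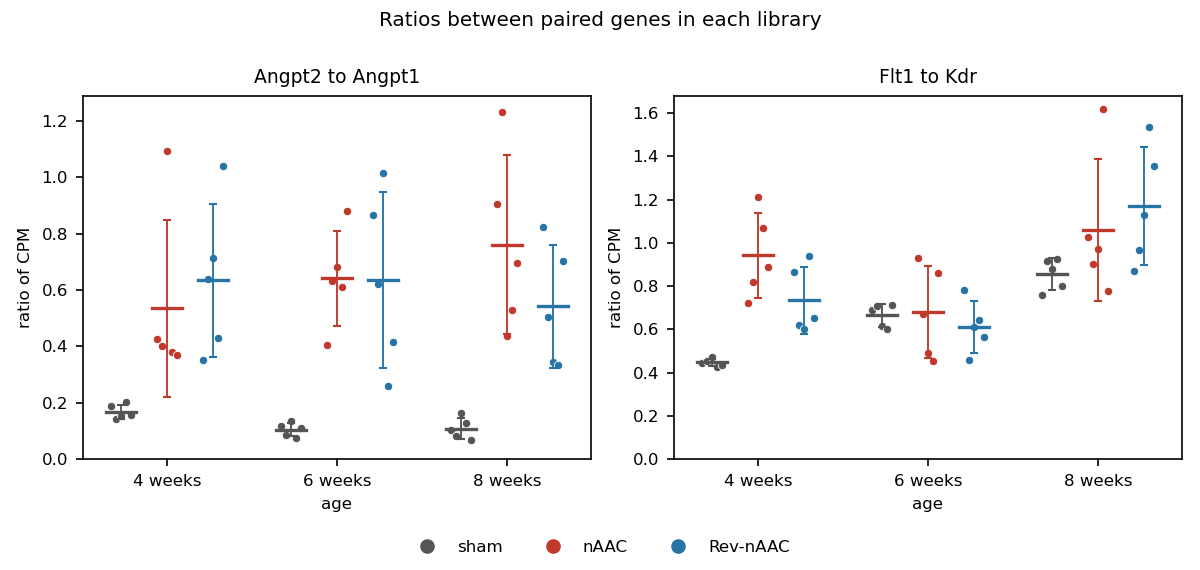
Ratio of CPM of Angpt2 to Angpt1 (left) and of Flt1 to Kdr (right) in each library by age and operation, with the mean and SD of each group of 5. The Angpt2 to Angpt1 ratio stays at or under 0.202 in all sham libraries, and the Flt1 to Kdr ratio of sham rises without overlap from 0.426 to 0.473 at 4 weeks to 0.757 to 0.926 at 8 weeks.

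Kdr and Flt1, the VEGF receptors, moved in opposite directions at 4 weeks. Kdr, the main signalling receptor (chr5:75932827-75979072, minus strand), was at 321, 346, 333, 350.3 and 323 CPM in sham and at 253, 289, 166, 210.3 and 159.7 CPM in nAAC. The groups did not overlap, and Kdr fell by 0.63 on the log2 scale (SE 0.18, edgeR adjusted p = 0.00420), a call that held in every alternative run. Flt1, the tight-binding receptor (chr5:147561604-147726438, minus strand), was at 143, 158, 157, 149 and 140.2 CPM in sham and at 183, 237, 202, 225 and 142 CPM in nAAC. All but library 5 of nAAC were above sham, and Flt1 rose by 0.40 (SE 0.10, edgeR adjusted p = 0.00137), again in every alternative run. Gene counts do not separate the soluble from the membrane form of Flt1.

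The promoters of these receptors are shown because their genes moved apart at 4 weeks and with age. Both are RefSeq windows of GRCm38.p6 on the minus strand, of the same extent as that of Apln, for Flt1 at chr5:147725962-147726261 and for Kdr at chr5:75978406-75978705. Unlike the window of Apln, each lies wholly within the span given above for its gene, so the start site used is inside that span. Capitals mark the motif matches.

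Flt1 promoter: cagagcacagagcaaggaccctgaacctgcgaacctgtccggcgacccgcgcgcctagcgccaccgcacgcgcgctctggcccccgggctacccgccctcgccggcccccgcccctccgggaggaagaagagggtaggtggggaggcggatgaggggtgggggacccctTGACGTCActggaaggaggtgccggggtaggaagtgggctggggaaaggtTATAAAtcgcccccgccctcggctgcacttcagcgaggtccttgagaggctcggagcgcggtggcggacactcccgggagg

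Kdr promoter: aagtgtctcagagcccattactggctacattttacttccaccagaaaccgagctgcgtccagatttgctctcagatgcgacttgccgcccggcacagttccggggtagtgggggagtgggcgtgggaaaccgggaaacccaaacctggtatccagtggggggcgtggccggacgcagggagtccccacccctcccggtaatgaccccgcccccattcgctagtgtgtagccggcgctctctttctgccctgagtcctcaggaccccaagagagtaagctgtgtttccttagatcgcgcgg

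The Flt1 window holds TGACGTCA at position -81 and TATAAA at position -31 from the start site, and no other of the 5 motifs. None of the 5 was found in the Kdr window. Windows were given for 6 of the 10 members (Apln, Flt1, Kdr, Tek, Vegfa and Vegfb). Among these the other match was ACGTG at position -211 of the downstream of 2 Vegfa windows.

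Rev-nAAC at 4 weeks held 199, 226, 225, 219 and 228 CPM of Flt1, all above sham, a rise of 0.55 (SE 0.10, edgeR adjusted p = 6.50e-05) that held in every alternative run. Kdr in the same libraries was at 231, 365, 372, 234 and 349.7 CPM, spread across the sham range, with a difference from sham of -0.11 (SE 0.18). Against nAAC Kdr was at 0.52 (SE 0.18) with an edgeR adjusted p = 0.0994, which became 0.0436 without nAAC library 1 (0.59) and 0.0467 without nAAC library 2 (0.65). At 6 and 8 weeks neither receptor was called between operations, and the 95% intervals of nAAC against sham for Kdr ran from -0.31 to 0.38 and from -0.40 to 0.29. The nAAC libraries of Kdr were widely spread, from 185 to 346 CPM at 6 weeks and from 133 to 319 CPM at 8 weeks. The fold change of Flt1 in nAAC against sham was lower at 6 than at 4 weeks by a log2 difference of -0.43 (SE 0.14, edgeR adjusted p = 0.0304). This missed the threshold without sham 4-week library 1 or 5, sham 6-week library 5, nAAC 4-week library 2 or 4, or nAAC 6-week library 4 or 5 (edgeR adjusted p from 0.0509 to 0.0758). With nAAC 4-week library 1 counted as sham the difference was -0.40 and also missed it (edgeR adjusted p = 0.0508).

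With age the receptors of sham hearts shifted as well. From 4 to 8 weeks Flt1 rose by 0.43 (SE 0.10, edgeR adjusted p = 0.00157) and Kdr fell by 0.50 (SE 0.18, edgeR adjusted p = 0.0371). The sham libraries of Flt1 held 204, 205, 208, 191 and 199 CPM at 8 weeks and those of Kdr 269, 224, 236, 206 and 248 CPM, without overlap with 4 weeks. The Kdr call was lost without any of the 10 libraries compared except sham 8-week library 1 (edgeR adjusted p from 0.0503 to 0.0911). Between these sham ages 5 of the 10 members were called where 22.7% of genes were, 1 higher beside 10.7% and 4 lower beside 12.0%. At 6 against 4 weeks 2 members were called, Apln and Aplnr, against 16.9% of genes, both lower beside 9.58%. None was called at 8 against 6 weeks, where 1.83% of genes were and 3 members had an unadjusted p under 0.05. The ratio of Flt1 to Kdr CPM ran from 0.426 to 0.473 in sham at 4 weeks, from 0.602 to 0.711 at 6 weeks and from 0.757 to 0.926 at 8 weeks, without overlap between ages. In nAAC at 4 weeks it ran from 0.723 to 1.21, above sham of that age, and in Rev-nAAC from 0.603 to 0.937. At 6 weeks the nAAC ratios, from 0.454 to 0.929, spread over both sides of the sham range. At 8 weeks they ran from 0.775 to 1.62, overlapping it.

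Vegfa, the principal ligand of Kdr (chr17:46016993-46032377, minus strand), differed little. At 4 weeks it was at 199, 265, 347, 272 and 287 CPM in sham and at 233, 276, 215, 192 and 187 CPM in nAAC, with overlap. It fell by 0.31 (SE 0.12, edgeR adjusted p = 0.0290). That call was lost without sham library 3 or 5 or nAAC library 3, 4 or 5 (-0.21 to -0.30, edgeR adjusted p from 0.0561 to 0.149). With sex as a covariate the difference was -0.27 (edgeR adjusted p = 0.0762), and with male libraries alone it was -0.14. The call was also lost with limma voom, without the filter on low counts, in a fit of only the groups compared and without the 4 libraries named above. At 6 and 8 weeks the differences of 0.13 (SE 0.12) and 0.21 (SE 0.12) were not called. The effect at 8 weeks differed from that at 4 weeks by 0.53 (SE 0.16, edgeR adjusted p = 0.0276). That call was lost without sham 4-week library 3 (0.43), nAAC 4-week library 5 (0.47) or nAAC 8-week library 4 (0.48). It was also lost without the filter and without the 4 libraries named above (0.48 each), and with male libraries alone the difference was 0.35. Counts per gene do not separate the splice forms of Vegfa.

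In Rev-nAAC at 8 weeks Vegfa was at 201, 214, 173, 234 and 264 CPM, and in nAAC at 286, 290.2, 257, 323 and 276 CPM. Of the Rev-nAAC libraries only library 5, the single male, reached the nAAC range. Vegfa fell by 0.40 against nAAC (SE 0.12, edgeR adjusted p = 0.00751), and with male libraries alone the difference was -0.11 (edgeR adjusted p = 0.840). Against sham, at 271, 239.8, 214, 238 and 271 CPM, it was -0.18 (SE 0.12) and not called. The effect of reversal on Vegfa was lower at 8 than at 4 weeks by a log2 difference of -0.61 (SE 0.16, edgeR adjusted p = 0.0193). That call was lost with male libraries alone (-0.14, edgeR adjusted p = 0.908), in a fit of only the groups compared (-0.63, edgeR adjusted p = 0.0934) and without the 4 libraries named above (-0.57, edgeR adjusted p = 0.125).

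Vegfb, a ligand of Flt1 that is abundant in heart muscle (chr19:6982472-6987651, minus strand), was lower in nAAC at 6 and 8 weeks. At 6 weeks sham libraries held 176, 189.5, 194, 165 and 161 CPM and nAAC libraries 136, 127, 128, 135 and 126 CPM. At 8 weeks sham held 175, 195, 148, 148 and 192 CPM and nAAC 120.3, 136, 131, 118 and 134 CPM. The groups did not overlap at either age, and Vegfb fell by 0.44 (SE 0.11, edgeR adjusted p = 0.00101) and by 0.42 (SE 0.11, edgeR adjusted p = 0.00168), in every alternative run. At 4 weeks the nAAC libraries held 138, 125, 161, 129 and 231 CPM, and library 5 was above all sham libraries. The difference was -0.12 (SE 0.11, edgeR adjusted p = 0.399), and without library 5 it was -0.30 (edgeR adjusted p = 0.00851).

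Rev-nAAC at 6 weeks held 175, 175, 173, 232 and 195 CPM of Vegfb, within or above the sham range and above every nAAC library. The rise against nAAC was 0.54 (SE 0.11, edgeR adjusted p = 0.000293), and 0.52 with male libraries alone (edgeR adjusted p = 0.0702). Against sham the difference was 0.10 (SE 0.11, 95% interval from -0.12 to 0.32). At 8 weeks the Rev-nAAC libraries held 164, 150.2, 144, 142 and 166 CPM, which did not overlap with nAAC. The difference of 0.26 (SE 0.11) missed the threshold in the main fit (edgeR adjusted p = 0.0635) but passed it in some alternatives. It passed at 0.26 with limma voom (limma adjusted p = 0.00700) and at 0.25 in a fit of only the groups compared (edgeR adjusted p = 0.0155). Without the 4 libraries named above it passed at 0.29 (edgeR adjusted p = 0.0167). The effect of reversal at 6 weeks was higher than at 4 weeks by 0.57 (SE 0.16, edgeR adjusted p = 0.0385), the only member called where 2.69% of genes were (higher in 1.72%). That call rested on single libraries: it was lost without nAAC 4-week library 5 (0.39, edgeR adjusted p = 0.0891) or Rev-nAAC 6-week library 4 (0.49, edgeR adjusted p = 0.116). It was lost without any of 6 others (edgeR adjusted p from 0.0570 to 0.0994). These were nAAC 6-week library 2, 3 or 5, Rev-nAAC 4-week library 2 or 3 and Rev-nAAC 6-week library 5. The call was also lost with limma voom (0.24, limma adjusted p = 0.363) and in a fit of only the groups compared (edgeR adjusted p = 0.234). With upper-quartile factors and without the filter on low counts it was lost as well. Without the 4 libraries named above the difference was 0.38 (edgeR adjusted p = 0.203), and with male libraries alone it was 0.43.

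Heart muscle markers also differed between these groups. The sum of 8 cardiomyocyte genes ran from 42005 to 47108 CPM in sham, from 24223 to 28758 CPM in nAAC and from 31883 to 42403 CPM in Rev-nAAC at 6 weeks. In nAAC against sham at 6 weeks, where 23.8% of tested genes were lower, none of the 8 was higher and 5 were lower. Their part in the Vegfb result was not tested. Over the 45 libraries Vegfb was most like Ndufs7 (0.937), Chchd10 (0.926) and Tle5 (0.918), while the highest correlations of Vegfa were weaker, with Zkscan3 (0.631), Baz1b (0.605) and Rbm28 (0.590).

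Of 6 other VEGF ligands and receptors, all tested, 2 were higher and 2 lower in nAAC at 4 weeks, 2 higher and 2 lower at 6 weeks, and 2 higher and 1 lower at 8 weeks. The shares of all tested genes were 19.5%, 24.5% and 23.8% higher and 21.2%, 23.8% and 23.5% lower. Vegfc, which acts mainly on lymphatic vessels, rose by 0.49, 0.87 and 1.05 at the 3 ages (edgeR adjusted p = 0.0314, 0.000144 and 9.91e-06). Vegfd, a related lymphatic ligand, rose by 1.85 at 4 weeks and 0.62 at 6 weeks (edgeR adjusted p = 2.31e-07 and 0.0346) and was at 0.11 at 8 weeks. Pgf, a ligand of Flt1, was at -0.14 and -0.51 at 4 and 8 weeks without a call and fell by 0.72 at 6 weeks (edgeR adjusted p = 0.0362).

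**Figure D4:**
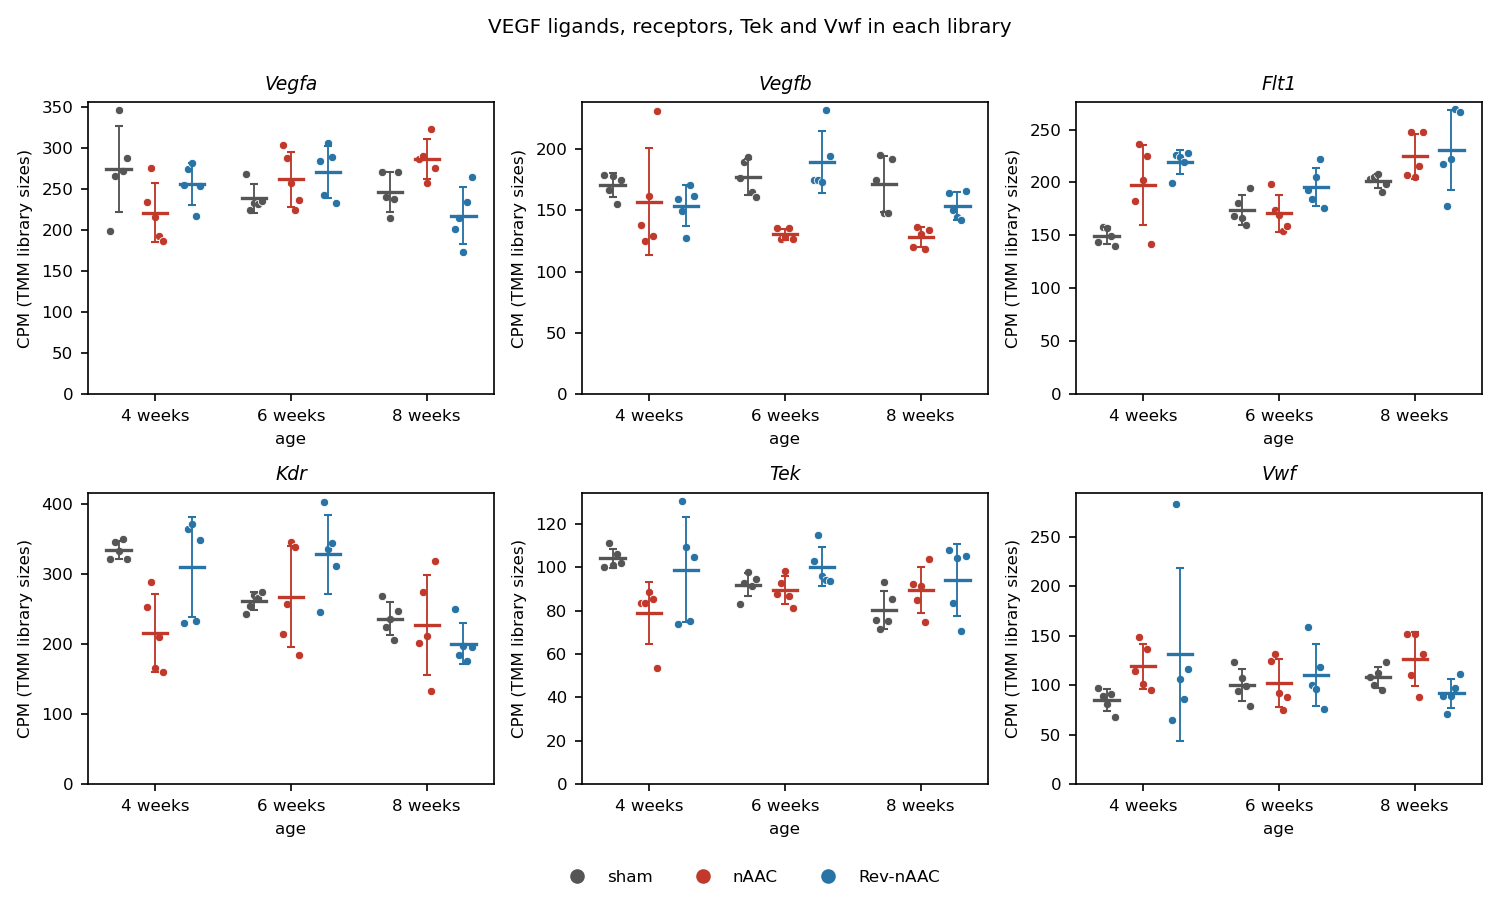
CPM of Vegfa, Vegfb, Flt1, Kdr, Tek and Vwf in each of the 45 libraries by age and operation, with the mean and SD of each group of 5. Vegfb in nAAC lies at 136 CPM or lower at 6 and 8 weeks, below all sham libraries of those ages, and 1 Rev-nAAC library at 4 weeks reaches 283 CPM of Vwf.

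Vwf, the endothelial clotting protein (chr6:125552948-125686679, plus strand), was not called in nAAC against sham at any age in the main edgeR fit, though at 4 weeks it was in some alternatives. At 4 weeks it was at 97.2, 88.7, 81.2, 90.8 and 68.1 CPM in sham and at 114, 148, 101, 136 and 94.9 CPM in nAAC, where only the lowest library overlapped sham. The log2 fold change was 0.48 (SE 0.24) with an edgeR adjusted p = 0.102. It passed the threshold at 0.67 with limma voom (limma adjusted p = 0.00600) and at 0.51 in a fit of only the groups compared (edgeR adjusted p = 0.0132). Without the 4 libraries named above it passed at 0.60 (edgeR adjusted p = 0.0183), and with male libraries alone it was 0.57. Rev-nAAC libraries held 65.1, 283, 106, 85.8 and 116 CPM, and library 2 was far above the rest. The rise against sham of 0.62 (SE 0.24, edgeR adjusted p = 0.0496) became 0.13 without that library (edgeR adjusted p = 0.685). That library was also the highest of its group in the sum of 5 red cell genes, at 10251 CPM beside a group median of 1348, and in the sum of 7 platelet genes, at 37.7 CPM beside a group median of 20.2. The part of blood cells was not tested. The call was also lost without any sham library (edgeR adjusted p from 0.0530 to 0.119) and without Rev-nAAC library 5 (0.66, edgeR adjusted p = 0.0503). At 6 and 8 weeks Vwf was at 0.03 (SE 0.24) and 0.23 (SE 0.24) in nAAC against sham.

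Of 9 genes that store, process or accompany Vwf, 8 were tested, and 2, 3 and 5 were higher and none lower in nAAC at 4, 6 and 8 weeks. Among all tested genes 19.5%, 24.5% and 23.8% were called higher and 21.2%, 23.8% and 23.5% lower. Selp, the adhesion receptor stored with Vwf, was at 1.14, 1.31 and 0.37 without a call. Stxbp5, a regulator of Vwf release, was at -0.01 and 0.18 and rose by 0.26 at 8 weeks (edgeR adjusted p = 0.0328). Vwf was most like Vcam1 (0.738), St3gal1 (0.701) and C3 (0.645) over the 45 libraries.

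General markers of endothelial cells were counted beside these genes, without a test between the lists. Of 18 pan-endothelial genes, none was higher and 3 were lower in nAAC at 4 weeks, 7 higher and 0 lower at 6 weeks, and 13 higher and 0 lower at 8 weeks, with list medians of -0.04, 0.26 and 0.42 on the log2 scale. Of all tested genes 24.5% were called higher at 6 weeks and 23.8% at 8 weeks, and 21.2% were called lower at 4 weeks. Pecam1, an adhesion protein of all endothelial cells, was at -0.05 at 4 weeks and rose by 0.31 at 6 and 0.49 at 8 weeks (edgeR adjusted p = 0.0074 and 6.15e-05). Cdh5, the endothelial cadherin, fell by 0.53 at 4 weeks (edgeR adjusted p = 0.000113) and was at 0.05 and 0.20 later. In sham at 8 against 4 weeks, where 12.0% of tested genes were lower, 13 of the 18 were lower and 0 higher. The summed level of the 18 ran from 1917 to 2183 CPM in sham at 4 weeks and from 1329 to 1643 CPM at 8 weeks. In Rev-nAAC against nAAC 0 of the 18 were called at 4 and 6 weeks, and 1 was higher and 2 lower at 8 weeks. That comparison called 2.55%, 25.9% and 32.9% of all tested genes at the 3 ages.

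Each member was also set against the summed level of these 18 markers in the same library, and on this scale Angpt1, Apln and Vegfb were lower in nAAC. The mean log2 difference from sham was -1.83, -2.97 and -3.08 for Angpt1 and -2.45, -1.06 and -1.24 for Apln at 4, 6 and 8 weeks, with no overlap between the groups at any age. For Vegfb it was -0.69 at 6 weeks and -0.78 at 8 weeks, also without overlap. Aplnr was lower by a log2 difference of -1.73 at 4 weeks, and at 0.16 and -0.01 later. In sham from 4 to 8 weeks Flt1 was at 0.91, Apln at -1.11 and Aplnr at -1.80 without overlap. Kdr and Tek were at -0.02 and 0.10 with overlap, but relative to Pecam1 and Cdh5 alone they were at 0.23 and 0.35 without overlap, so their place depended on the markers used. These values are a description, as a marker sum is not a count of cells. The mean sum was itself higher in nAAC than in sham, at 1844 against 1544 CPM at 6 weeks and 1846 against 1434 CPM at 8 weeks. That lowers any gene set against it at these ages. Angpt1 is made by cells around the vessel and Vegfb is abundant in heart muscle, so the sum is not a measure of their source cells.

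**Figure D5:**
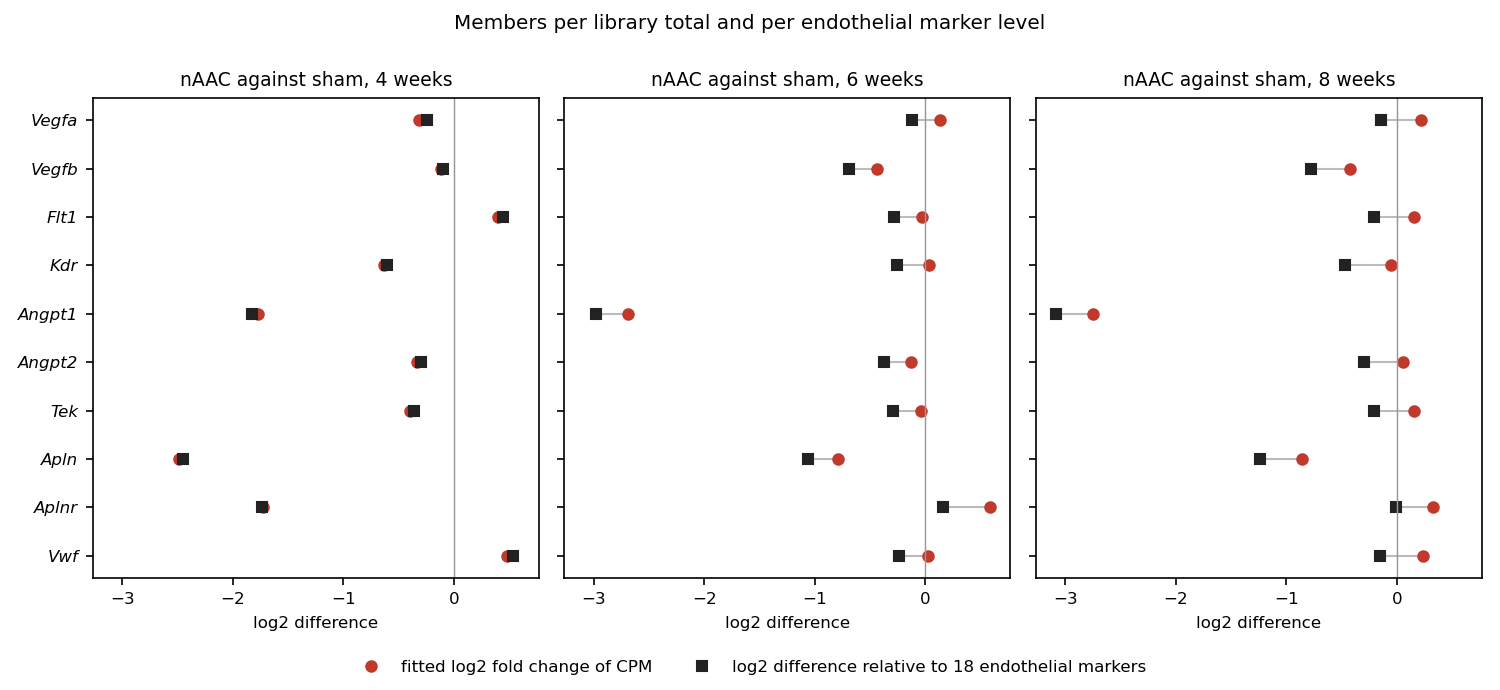
Log2 difference between nAAC and sham for each gene at 4, 6 and 8 weeks, as the fitted fold change of CPM (circles) and relative to the summed CPM of 18 pan-endothelial markers in the same library (squares). Angpt1 moves from -2.69 to -2.97 at 6 weeks and from -2.75 to -3.08 at 8 weeks, and Aplnr lies at -1.73 on both scales at 4 weeks.

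Genes of sprouting vessels and of the hypoxia response gave a further backdrop. Of 14 tip cell and vessel growth genes, 2 were higher and 4 lower in nAAC at 4 weeks, 8 higher and 0 lower at 6 weeks, and 7 higher and 0 lower at 8 weeks. In nAAC against sham 19.5%, 24.5% and 23.8% of all tested genes were called higher at the 3 ages and 21.2%, 23.8% and 23.5% lower. With reversal, 0 of the 14 were higher and 8 lower than in nAAC at 8 weeks, beside 16.0% of tested genes lower. Esm1, a marker of sprouting endothelial tips, rose by 1.43, 2.12 and 1.16 in nAAC (edgeR adjusted p = 0.0119, 0.000273 and 0.0334). Apln, another tip cell gene, was lower, with a call at 6 weeks that did not hold, as given above. Dll4 and Notch1, the ligand and receptor that restrain sprouting, were called at no age in nAAC against sham, at 0.12, -0.09 and 0.06 and at -0.09, 0.06 and 0.00. Of 16 hypoxia response genes, 7, 8 and 9 were higher and 1, 2 and 1 lower in nAAC at the 3 ages, beside the shares of all tested genes just given. Hif1a, the oxygen-sensitive regulator, was at 0.25 at 4 weeks and rose by 0.50 and 0.64 at 6 and 8 weeks (edgeR adjusted p = 0.000971 and 4.38e-05). Epas1, its endothelial relative, was at 0.18 and -0.17 at 4 and 8 weeks and fell by 0.34 at 6 weeks (edgeR adjusted p = 0.00152), and Egln3, a hypoxia-induced oxygen sensor, fell by 0.83 at 4 weeks (edgeR adjusted p = 0.00174) and was at 0.04 at 6 weeks and -0.00 at 8 weeks.

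The group means of each member were also put in order, as a description only. This order does not separate operation from sex, since all sham libraries were male. Every sham mean of Angpt1 (28.6 to 40.5 CPM) stood above every operated mean (5.46 to 12.1 CPM), and sham at 4 weeks did not overlap with the next group, Rev-nAAC at 6 weeks. For Apln and Aplnr sham at 4 weeks stood first, and the last places went to Rev-nAAC at 8 weeks. Flt1 means ran from 149.6 ± 7.93 CPM in sham at 4 weeks to 231 ± 38.0 CPM in Rev-nAAC at 8 weeks. The ratio of highest to lowest group mean was 1.32 for Vegfa and Tek, 1.48 for Vegfb, 1.54 for Flt1 and Vwf, 1.67 for Kdr and 1.90 for Angpt2. For every member except Vegfb, Angpt1 and Apln, neighbouring groups in the order overlapped throughout. Vegfb had a gap between Rev-nAAC at 8 weeks and nAAC at 6 weeks, and Apln between sham at 4 and at 6 weeks.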

How the data were processed

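Total RNA of 45 left ventricular samples was sequenced. Per the submitters' processing notes the authors' tools were fastp (0.20.1), the aligner HISAT2 (2.1.0) and, for counting, HTSeq (0.11.2), on build GRCm38 (mm10) of the mouse; the annotation, the strand setting and the treatment of shared reads are not given in the sources used here. The deposited values are read counts per gene, checked to be whole numbers, with no normalization, and 0 columns of values were left unused. Totals of 31586082 to 35965976 counts per library set the precision of low counts. The closest pair of libraries had a correlation of 0.990, so none was treated as a copy.

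The counts were fitted with edgeR 4.0.16 in R 4.3.3 (TMM, filterByExpr with minimum count 10 and minimum total 15, 15444 genes, robust dispersions, all 9 groups together). Quasi-likelihood tests covered 18 comparisons: the operations at each age, sham ages, and differences of the nAAC minus sham and Rev-nAAC minus nAAC effects between ages. Each comparison had its own Benjamini-Hochberg adjustment over all genes tested, and calls needed an adjusted p under 0.05. RNA was extracted with Trizol, per the labels' protocols. SE is the log2 fold change divided by the root of the F statistic. In simulated counts for nAAC against sham at 4 weeks over 15444 genes, 93 of 100 genes changed by 1 and 100 of 100 changed by 2 on the log2 scale were recovered, with 10 false calls. Same-numbered libraries correlated above 0.1 in at most 2 of 5 pairs, so replicate numbers were not used as pairs.

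Gene positions come from RefSeq, strands and exon lengths from GENCODE M21 on GRCm38, and promoter windows from RefSeq (GRCm38.p6). From other lists, genes named with values are the first 3 tested in written order, except 1 gene that is not reported here; likeness is the Pearson correlation of log2 CPM (prior count 2), passing over unnamed gene models. The members and all gene lists were chosen with earlier results of these data known. Alternatives were DESeq2 1.42.0, limma 3.58.1 voom with quality weights, RLE or upper-quartile normalization, no filter, only the groups compared, a replicate block, sex as a covariate, male libraries only, nAAC 4-week library 1 as sham, 4 doubted libraries left out, and each library left out in turn.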

Additional observations from a re-analysis of the deposited data

Results flagged for a closer look

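In 8 of the 90 sets of 5 libraries (10 genes in 9 groups), 1 library stood apart from the others by the Dixon test; chance alone flags about 1 set in 20. These were Vegfa in sham 6-week library 1 (269 CPM), Kdr in Rev-nAAC 8-week library 1 (249.999 CPM), Angpt1 in sham 6-week library 4 (47.3 CPM), Angpt2 in nAAC 8-week library 2 (6.30 CPM), Tek in nAAC 4-week library 5 (53.4 CPM), Aplnr in nAAC 4-week library 1 (75.6 CPM), Aplnr in Rev-nAAC 4-week library 3 (131 CPM) and Vwf in Rev-nAAC 4-week library 2 (283 CPM). The Tek library also had the lowest correlation with its group, the first Aplnr library carries a sham treatment tag, and the Vwf library had the highest red cell sum; their part in these values was not tested.

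Of 60 differences of effects between ages that were tested with edgeR, 10 passed. The fold change of nAAC against sham at 6 weeks differed from that at 4 weeks by -0.43 for Flt1, 1.70 for Apln and 2.31 for Aplnr, on the log2 scale. At 8 against 4 weeks it differed by 0.53 for Vegfa, 0.55 for Tek, 1.63 for Apln and 2.05 for Aplnr. The fold change of Rev-nAAC against nAAC differed by 0.57 for Vegfb at 6 against 4 weeks, and by -0.61 for Vegfa and -1.63 for Apln at 8 against 4 weeks. Between 6 and 8 weeks no member's effect was called, where 0.162% (nAAC against sham) and 0.0907% (Rev-nAAC against nAAC) of tested genes were, and 0 and 3 members had an unadjusted p under 0.05.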

How the results depend on the processing

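Of 180 member results (10 genes in 18 comparisons) 44 were calls, and 23 of these were lost in at least 1 alternative; 121 calls were lost and 84 gained over 4380 alternative values. The only called value that changed sign was Apln in Rev-nAAC against nAAC at 8 weeks, 0.0725 with male libraries only, a fit that leaves 1 library in nAAC at 6 weeks and in Rev-nAAC at 8 weeks, assumed to vary like the rest. Counts per library were low for Angpt2 (81 to 252) and reached down to 55 for Apln. With the replicate block the Vwf call in Rev-nAAC against sham at 4 weeks was lost (0.59, edgeR adjusted p = 0.0647) and no other member call.

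Counts of called genes over 15444 moved by over 1.5 times as follows. For Rev-nAAC against nAAC at 4 weeks (394) they were 663 with DESeq2, 710 with voom, 768 in males, 1223 with the tagged library as sham, 242 without a filter, 0 with only the groups compared (1284 at unadjusted p under 0.05), 974 without the 4 doubted libraries, and 43 (without nAAC library 3) to 1440 (without nAAC library 1) with 1 library left out. For sham at 8 against 6 weeks (282) they were 556, 1921, 973 in males, 154 without a filter, 1432 with only these groups, 631 without the doubted libraries and 87 to 214 with 1 left out, the first pair DESeq2 and voom here and below. Voom gave 4556 for Rev-nAAC against sham at 6 weeks (2634), 5282 and 6324 for sham at 6 and 8 against 4 weeks (2611 and 3506; only these groups 5042 and 5434), and 3599 for the constriction effect at 8 against 4 weeks (2094). Male libraries gave 4474 for nAAC against sham at 6 weeks (7453), 1082 and 629 for Rev-nAAC against nAAC at 6 and 8 weeks (4002 and 5083), 1940 for Rev-nAAC against sham at 8 weeks (5500) and 832 for the constriction effect at 6 against 4 weeks (2669). The constriction effect at 8 against 6 weeks (25) had 77, 285, 10 with the tagged library as sham, 14 without a filter, 201 with only these groups, 16 with the replicate block, 16 with upper-quartile factors, 53 without the doubted libraries and 7 to 31 with 1 left out. The reversal effect at 6 against 4 weeks (416) had 762, 153, 3 in males, 208 with the tagged library as sham, 230 without a filter, 3 with only these groups, 53 without the doubted libraries and 76 (without Rev-nAAC 6-week library 4) to 830 (without Rev-nAAC 4-week library 4). At 8 against 4 weeks (1222) it had 5 in males, 718 without a filter, 0 with only these groups (2833 at unadjusted p under 0.05), 519 with sex as a covariate, 127 without the doubted libraries and 480 (without Rev-nAAC 4-week library 3) to 2464 (without Rev-nAAC 8-week library 5). At 8 against 6 weeks (14) it had 78, 676, 0 in males, 3 with the tagged library as sham, 5 without a filter, 0 with only these groups, 6 with the replicate block, 0 with sex as a covariate, 6 without the doubted libraries and 0 to 504 with 1 left out; the fits at 0 had 705 (males), 1682 (these groups), 1255 (sex) and 1611 (without nAAC 6-week library 3) genes at an unadjusted p under 0.05. Apart from fewer samples or genes in a fit, the cause was not tested. The share of higher calls moved from 36% to 25% (constriction effect) and from 42.9% to 57.9% (reversal effect) at 8 against 6 weeks with upper-quartile factors. All alternatives named were run.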

Other observations

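Vessel wall cells other than endothelium were also measured. Of 12 mural cell genes, 0 were higher and 4 lower in nAAC against sham at 4 weeks, 3 higher and 4 lower at 6 weeks, and 5 higher and 3 lower at 8 weeks (edgeR, adjusted p under 0.05). Over all tested genes 19.5%, 24.5% and 23.8% were higher and 21.2%, 23.8% and 23.5% lower. Pdgfrb, the receptor that recruits pericytes, was at 0.07 and 0.18 at 4 and 6 weeks and rose by 0.28 at 8 weeks (adjusted p = 0.0436), Rgs5 was at -0.27, -0.10 and 0.22 without a call, and Kcnj8 fell by 0.35 at 4 and at 6 weeks (adjusted p = 0.0158 and 0.0128). Of 10 capillary genes, 5 were higher and 0 lower in Rev-nAAC against nAAC at 6 weeks and again at 8 weeks. In these comparisons 2136 and 2612 of the 15444 tested genes were higher. Of 10 arterial genes, 5 were higher and 0 lower in nAAC against sham at each age, beside the shares just given for that comparison.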
